A study of Mus musculus with 12 samples.

Results

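The genes described here move iron across hepatocyte membranes, carry it in plasma, or change its oxidation state. They are Slc39a14, Slc39a8, Trf, Cp, Steap2, Steap3, Steap4, Heph and Cybrd1. Members were taken by symbol, as the rows of the count table whose Ensembl identifier carries these names in GENCODE vM39, which gave 9 genes of 55414 in the table. Liver RNA was sequenced from 12 female wild-type C57BL/6J mice of 8 to 12 weeks, in 4 groups of 3. Mice received NaCl or 300 mg/kg FeSO4 i.p., and 6 h later PBS or 10 mg/kg dexamethasone (DEX, a synthetic glucocorticoid). Livers were taken 2 h after the second injection, 8 h after the first. The groups are called NaCl/PBS, NaCl/DEX, FeSO4/PBS and FeSO4/DEX, and each library is 1 mouse. The dose of FeSO4 is one that the study used to cause lethal shock, so that the FeSO4 groups are a model of acute poisoning and not of slow iron loading.

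Iron reaches the hepatocyte bound to transferrin, or as non-transferrin-bound iron when transferrin is saturated. Transferrin is encoded by Trf and is secreted mostly by hepatocytes. ZIP14 (Slc39a14) and ZIP8 (Slc39a8) are membrane importers of iron, zinc, manganese and other metals, and ZIP14 is known as the main route by which the liver takes up non-transferrin-bound iron. Ferric iron has to be reduced before such a carrier can move it. The STEAP proteins (Steap2, Steap3 and Steap4) and duodenal cytochrome b (Cybrd1) are membrane reductases of iron and copper, and STEAP3 acts in the endosome that holds transferrin. The reverse reaction is carried out by the copper ferroxidases ceruloplasmin (Cp), which the liver secretes, and hephaestin (Heph), known from the enterocyte, which load exported iron onto transferrin.

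RefSeq promoter windows (sequence of GRCm38.p6, placed by exact match on GRCm39) were held for 6 of the 9 genes, Slc39a8, Cp, Steap2, Steap3, Steap4 and Cybrd1, with 13 windows in all. In the 250 bases before each start, both strands were searched for the core of the metal response element (TGCACNC or TGCGCNC), the antioxidant response element (TGACNNNGC), the STAT motif (TTCNNNGAA) and the AP-1 motif (TGANTCA). The glucocorticoid response element was searched as AGAACA and TGTTCT with any 3 bases between them. No pattern contains another, although an antioxidant and an AP-1 match can share bases. Of all 32851 windows of this length, 21.41% held the metal response core, 10.16% the antioxidant element, 7.02% the STAT motif, 6.749% the AP-1 motif and 0.009132% the glucocorticoid element. A match in a window is a description of its letters and not evidence of binding. Slc39a8 held 1 antioxidant and 1 metal response match, and Steap2 held 1 antioxidant, 1 metal response and 1 STAT match. Steap4 held 1 STAT match, Cp and Cybrd1 held 1 AP-1 match each, and the 4 windows of Steap3 held none of these patterns. The glucocorticoid pattern was in none of the 13 windows. The STAT matches of Steap4 and Steap2 are shown because these related reductases had called FeSO4 responses of opposite sign, Steap4 in PBS mice and Steap2 in DEX mice, and the antioxidant match of Slc39a8 because that importer had no called change. Capitals mark the match, and the flanks are 10 bases on each side, on the strand of the gene.
Steap4, chr5:8010346-8010374 (GRCm39, + strand): ggttgaactcTTCCCGGAAactttgcttc
Steap2, chr5:5744443-5744471 (GRCm39, - strand): taaaatgcggTTCGTGGAAgggcatttct
Slc39a8, chr3:135530995-135531023 (GRCm39, + strand): gatatcccgaGCGGCGTCAggaagggccc
The Steap4 match lay 116 to 108 bases before the RefSeq start, within the span of the gene as GENCODE vM39 draws it. The Steap2 match lay 135 to 127 bases before the start of another RefSeq transcript, and is likewise within the span of its gene in vM39. The Slc39a8 match lay 35 to 27 bases before the start and upstream of the annotated gene.

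Between 16335651 and 23827340 reads per library (median 19602514) were counted on genes. Values below are normalized counts, that is raw counts scaled with TMM factors to the mean effective library size, unless a level per length is named. All 12 libraries entered 1 edgeR quasi-likelihood model in which 13857 genes, and 8 of the 9 members, passed the filter on low counts. A change was called at a Benjamini-Hochberg adjusted p (edgeR FDR) of 0.05 or less. LFC is the log2 fold change. For a gene taken by itself, the smallest two-sided p of an exact permutation test with 3 mice a group is 0.1. Scaled with TMM factors, the median LFC of all genes after FeSO4 was -0.02. With scaling by library size only it was -0.34, and changes are given relative to the first of these. FeSO4/PBS mouse 1 stood apart from its group. Its chi-square per gene against the other mice of the group was 81.4 and 64.9, against 22.0 between those other mice. Values that moved most without it are given both ways. Members called after FeSO4 in the absence of DEX numbered 2 higher and 0 lower of 8 tested, where 27.2% of all tested genes were higher and 27.3% lower. The count of 2 higher is thus near the background, and the size of each change is described gene by gene. The median LFC of the 8 genes was -0.08.

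**Figure D1:**
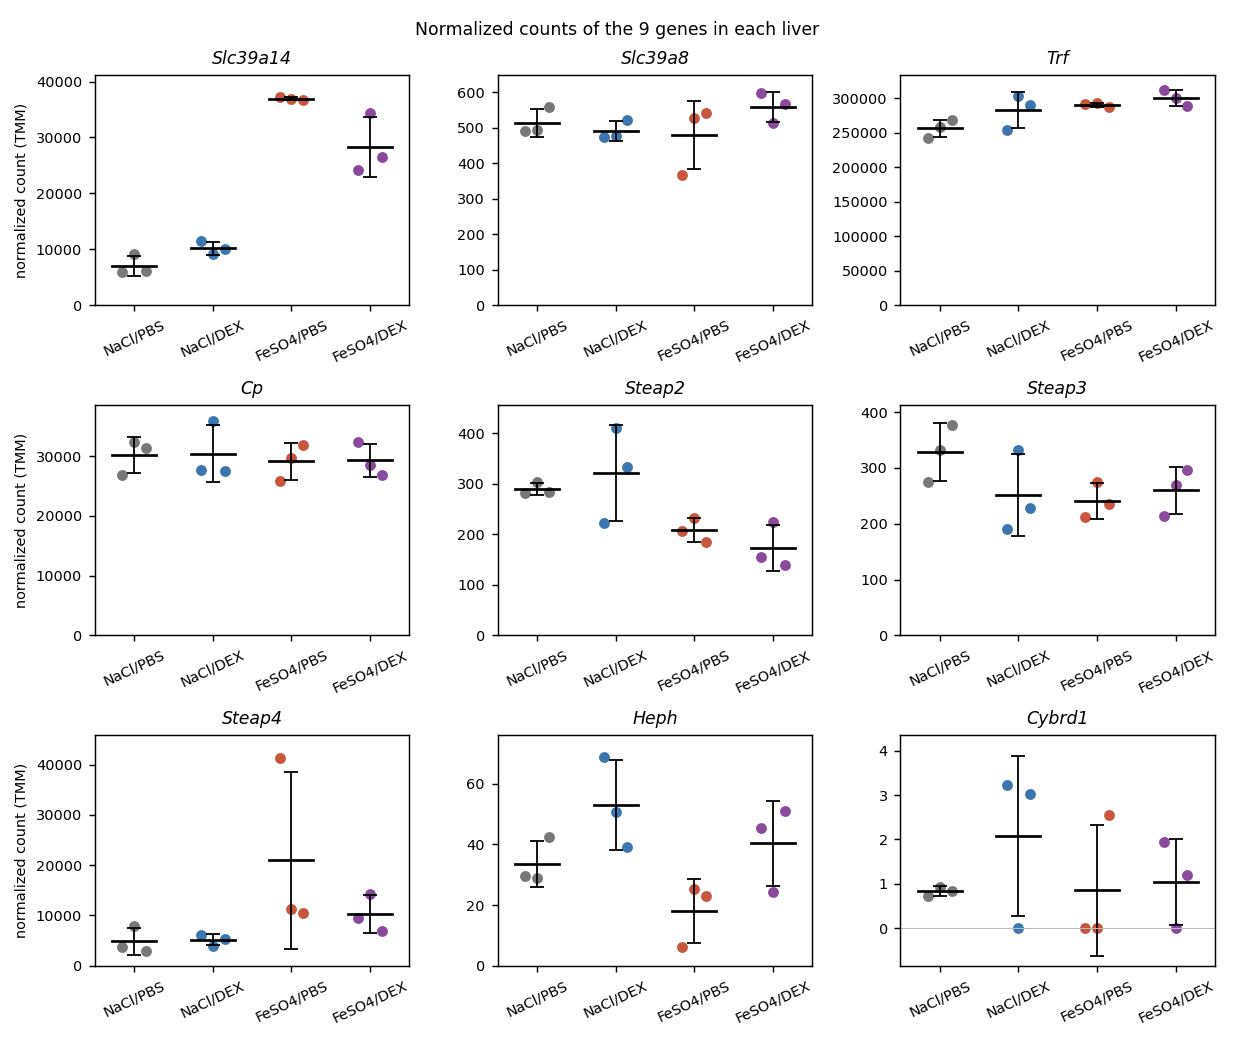
Normalized counts (y axis, linear) of the 9 genes in each liver of the 4 groups (x axis), with 1 point per mouse, a black bar at the group mean and whiskers of 1 SD (n = 3). Slc39a14 in the FeSO4 mice lay at 24136 or more and in all NaCl mice at 11438 or less, and Steap4 had 1 FeSO4/PBS mouse at 41344 beside others at 11221 and 10474.

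Slc39a14 was the member with the clearest change. The gene (ENSMUSG00000022094) lies on chromosome 14 from 70540678 to 70588914, on the minus strand. Its normalized counts were 5944, 9169 and 6108 in the NaCl/PBS mice. The FeSO4/PBS mice had 37322, 36814 and 36780. All FeSO4/PBS mice were thus above all controls, and they lay so close together that their coefficient of variation was 0.820%, against 25.7% in the NaCl/PBS mice. This was a 5.23-fold rise, with an LFC of 2.39 (SE 0.18, edgeR FDR 2.2e-07) that stayed between 2.07 and 2.62 over 19 alternative settings, with an edgeR or DESeq2 FDR of 2.2e-05 or less in each.

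DEX was followed by different values of Slc39a14 in NaCl and in FeSO4 mice. The NaCl/DEX mice had 11438, 9112 and 10103 normalized counts, above 2 of the 3 NaCl/PBS mice but overlapping the third. The LFC of DEX in NaCl mice was 0.53 (SE 0.17, edgeR FDR 0.060), which did not pass the threshold. It passed with DESeq2 (FDR 0.018) and without NaCl/PBS mouse 2, where the LFC was 0.77 (edgeR FDR 0.0064). It also passed without FeSO4/DEX mouse 2 (0.55, edgeR FDR 0.039) and without FeSO4/PBS mouse 1 (0.55, edgeR FDR 0.042). In the FeSO4/DEX mice the counts were 24136, 34429 and 26444, all below the FeSO4/PBS mice. That LFC was -0.38 (SE 0.17), with an unadjusted p of 0.045 from edgeR and an edgeR FDR of 0.76. The difference between these DEX responses, FeSO4 minus NaCl, was -0.91 (SE 0.25, edgeR FDR 0.043) and was called. Leaving out each mouse in turn kept the sign, with values from -1.16 to -0.81, but the call was lost in 8 of 12 cases, with an edgeR FDR of 0.062 to 0.108. These were the fits without mouse 1 or 3 of FeSO4/DEX, NaCl/DEX or NaCl/PBS, and without mouse 2 or 3 of FeSO4/PBS. In mice that had received DEX, FeSO4 still raised Slc39a14, with an LFC of 1.47 (SE 0.18, edgeR FDR 1.8e-05), and all FeSO4/DEX mice lay above all NaCl/DEX mice.

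Slc39a8 (ENSMUSG00000053897), on chromosome 3 from 135531040 to 135594333, encodes the closest relative of ZIP14 in this set. It had 490, 493 and 559 normalized counts in NaCl/PBS mice and 368, 529 and 542 in FeSO4/PBS mice. The groups overlapped, and the LFC was -0.10 with a 95% interval from -0.40 to 0.20 (edgeR FDR 0.56). Without FeSO4/PBS mouse 1 the LFC of Slc39a8 was 0.06, and it was again not called. NaCl/DEX mice had 473, 477 and 523, and FeSO4/DEX mice 597, 514 and 567. None of the 4 comparisons was called. The interval after FeSO4, from all 12 livers, does not reach the LFC of Slc39a14. On a scale of level per length, the share of Slc39a14 in the sum of both importers was 89.6% ± 2.46 (SD, n = 3) in the NaCl/PBS group. It was 98.1% ± 0.401 (SD, n = 3) in the FeSO4/PBS group.

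Trf (ENSMUSG00000032554, chromosome 9 from 103081200 to 103107814) was the most abundant member. The normalized counts were 242766, 258601 and 267660 in NaCl/PBS mice and 291085, 293279 and 287507 in FeSO4/PBS mice. All FeSO4/PBS mice were above all NaCl/PBS mice, but the LFC of 0.18 (SE 0.12, edgeR FDR 0.21) was not called, and its 95% interval ran from -0.07 to 0.43. The NaCl/DEX mice had 253926, 303685 and 289742 and the FeSO4/DEX mice 311331, 300727 and 288023. Beside these values, summed counts of 6 hepatocyte markers (Alb, Ttr, Apoa1, Fgb, Ahsg and Apoh) lay between 2008166 and 2384316 in NaCl/PBS mice and between 2578787 and 2979557 in FeSO4/PBS mice. Alb made up most of these sums, with a mean of 1626387 of 2195117 in NaCl/PBS and 1991802 of 2790297 in FeSO4/PBS mice. It was not called by itself (LFC 0.29, edgeR FDR 0.087). Of the 6 markers, 4 were higher after FeSO4, beside 27.2% of all tested genes, and the median LFC of the 6 was 0.35. The part of these markers in the value of Trf was not tested. In bulk liver, fewer cells of a type and less RNA per cell cannot be told apart.

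**Figure D2:**
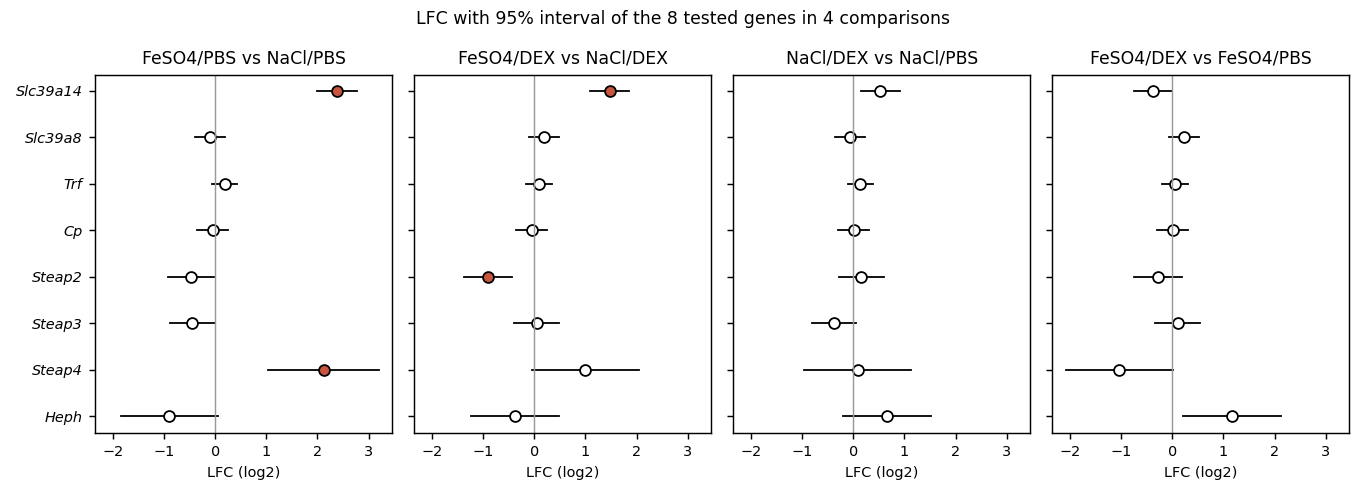
LFC (x axis, log2) of the 8 tested genes (y axis) in 4 comparisons, with filled points for an edgeR FDR of 0.05 or less. Lines are approximate 95% intervals derived from edgeR's F statistic. Slc39a14 and Steap4 are filled at 2.39 and 2.12 after FeSO4, Slc39a14 and Steap2 at 1.47 and -0.90 after FeSO4 in DEX mice, and no point is filled in either DEX comparison.

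Steap4 was the other member that rose after FeSO4, with a wide spread between the FeSO4/PBS mice. The gene (ENSMUSG00000012428, chromosome 5 from 8010260 to 8032214) encodes a reductase of the plasma membrane and endosomes that is known to be induced in inflammation. NaCl/PBS mice had 3750, 7962 and 2814 normalized counts. FeSO4/PBS mice had 41344, 11221 and 10474. Each FeSO4/PBS mouse was above each NaCl/PBS mouse, although mouse 1 lay far above the others in its group. The LFC was 2.12 (SE 0.50, edgeR FDR 0.0028), and without FeSO4/PBS mouse 1 it was 1.17 (edgeR FDR 0.016). The group mean was 21013 with that mouse and 10847 without it. The same mouse was also the highest of its group in Lcn2, an iron-binding acute-phase protein, with 44701 normalized counts against 13900 and 16689.

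In DEX-treated mice the values of Steap4 were closer to each other. The NaCl/DEX mice had 6186, 3964 and 5235 normalized counts and the FeSO4/DEX mice 9577, 14334 and 6827. The groups did not overlap, but the LFC of 1.00 (SE 0.49, edgeR FDR 0.11) was not called. It passed without FeSO4/PBS mouse 1 in the fit (edgeR FDR 0.029) and in a fit of these 6 libraries alone (edgeR FDR 0.0076). The LFC of DEX in FeSO4 mice was -1.04 (SE 0.49, edgeR FDR 0.76) and was -0.10 without FeSO4/PBS mouse 1. The interaction was -1.12 (SE 0.69, edgeR FDR 0.39), and without FeSO4/PBS mouse 1 it was -0.21 (SE 0.49, edgeR FDR 0.86).

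Steap2 (ENSMUSG00000015653, chromosome 5 from 5714829 to 5744678) had lower values after FeSO4. Normalized counts were 282, 303 and 283 in NaCl/PBS mice and 206, 233 and 185 in FeSO4/PBS mice. These groups did not overlap, but the LFC of -0.47 (SE 0.21, edgeR FDR 0.072) missed the threshold. It passed in 5 of 19 alternatives, among them the fit without NaCl/DEX mouse 1 (LFC -0.47, edgeR FDR 0.036). In DEX mice the fall was called. The NaCl/DEX mice had 222, 410 and 332 and the FeSO4/DEX mice 155, 224 and 139, an LFC of -0.90 (SE 0.22, edgeR FDR 0.0038). The highest FeSO4/DEX mouse, at 224, lay just above the lowest NaCl/DEX mouse, at 222. With any 1 mouse removed it ran from -1.16 to -0.69 and was called each time. Of the 12462 exonic bases of Steap2, 2211 are shared with the antisense transcript Gm40262, and the strand setting behind the counts is not given in the sources used here.

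Steap3 (ENSMUSG00000026389, chromosome 1 from 120118487 to 120200435), the endosomal reductase of transferrin iron, had 275, 333 and 378 normalized counts in NaCl/PBS mice. The FeSO4/PBS mice had 213, 276 and 235, with 1 mouse at the level of the lowest control. After FeSO4 the LFC was -0.45 (SE 0.20, edgeR FDR 0.075), which passed without NaCl/DEX mouse 2 (edgeR FDR 0.040). For FeSO4 in DEX mice it was 0.05 (SE 0.20, edgeR FDR 0.88). Values of NaCl/DEX mice were 191, 333 and 229, and those of FeSO4/DEX mice 215, 269 and 296. On the scale of level per length, Steap4 held 94.3% ± 2.80 (SD, n = 3) of the summed STEAP2, STEAP3 and STEAP4 level in the NaCl/PBS group and 98.8% ± 0.742 (SD, n = 3) in the FeSO4/PBS group. The reductase sum was thus almost all Steap4 in each group.

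The ferroxidases had no called change. Cp (ENSMUSG00000003617, chromosome 3 from 20011090 to 20063930) had 26837, 32458 and 31399 normalized counts in NaCl/PBS mice and 25835, 29683 and 31869 in FeSO4/PBS mice. The LFC was -0.05 with a 95% interval from -0.35 to 0.25 (edgeR FDR 0.77), and its NaCl/DEX mice had 27703, 35914 and 27548. FeSO4/DEX mice had 32421, 28541 and 26885, so that all 4 groups overlapped. Heph (ENSMUSG00000031209, chromosome X from 95498965 to 95621010) was low throughout. It had 29.5, 29.0 and 42.3 in NaCl/PBS mice and 6.05, 25.4 and 23.0 in FeSO4/PBS mice, all lower than any control, with an LFC of -0.90 (SE 0.44, edgeR FDR 0.10). The NaCl/DEX mice had 68.7, 50.8 and 39.3 and the FeSO4/DEX mice 45.4, 24.5 and 51.1. For DEX in FeSO4 mice the LFC of Heph was 1.17 (SE 0.45), with an unadjusted edgeR p of 0.020 and an edgeR FDR of 0.73. FeSO4/PBS mouse 1 had 6 reads of Heph, the fewest of the 12 libraries. Without that mouse the LFC of Heph was -0.46 (SE 0.38, edgeR FDR 0.33) after FeSO4 and 0.72 (SE 0.38, edgeR FDR 0.80) for DEX in FeSO4 mice.

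Cybrd1 (ENSMUSG00000027015, chromosome 2 from 70948267 to 70973270), the reductase of the duodenal brush border, was barely detected. Its raw counts were 1, 1 and 1 in NaCl/PBS mice, 3, 0 and 3 in NaCl/DEX mice, 0, 0 and 2 in FeSO4/PBS mice and 2, 0 and 1 in FeSO4/DEX mice. No library had more than 3 reads, so the gene was not tested and no fold change is given.

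Read per length, the members spanned a wide range. The levels below are RPKM, TMM-scaled reads per kilobase of exon union and 1000000 reads. In NaCl/PBS mice the order was Trf at 2273 ± 112 (SD, n = 3), Cp at 136 ± 13.5, Steap4 at 68.0 ± 38.5, Slc39a14 at 29.5 ± 7.59, Slc39a8 at 3.29 ± 0.252, Steap3 at 2.24 ± 0.349, Steap2 at 1.17 ± 0.0483, Heph at 0.135 ± 0.0305 and Cybrd1 at 0.00788 ± 0.00103. No neighbours overlapped in that group. In FeSO4/PBS mice the order after Trf (2577 ± 25.8) was Steap4 (295 ± 247), Slc39a14 (154 ± 1.27) and Cp (131 ± 13.8), and the mice of Steap4 and Slc39a14 overlapped. Without FeSO4/PBS mouse 1 their order turned, with Steap4 at 152 and Slc39a14 at 154 RPKM. Slc39a14 thus moved from below Cp to above it, and its mice did not overlap those of Cp. In FeSO4/DEX mice, Steap4 (144 ± 53.3), Cp (132 ± 12.8) and Slc39a14 (118 ± 22.6) overlapped with their neighbours, and in NaCl/DEX mice Steap3 (1.71 ± 0.501) and Steap2 (1.30 ± 0.382) did. Levels per length depend on the length used, and with the longest transcript in place of the exon union Steap4 stood below Slc39a14 in the FeSO4/PBS and NaCl/DEX mice, and below both Cp and Slc39a14 in the FeSO4/DEX mice.

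**Figure D3:**
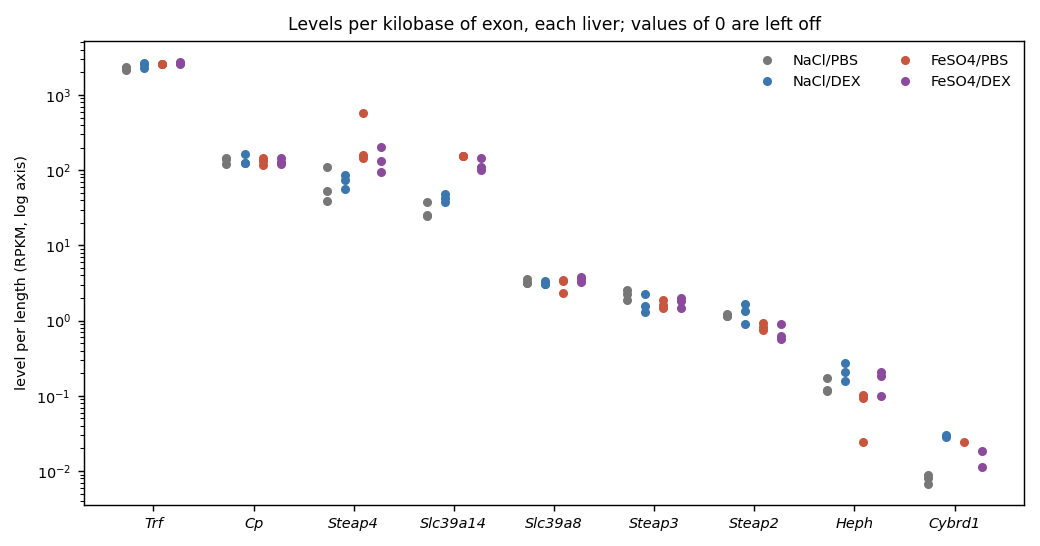
Levels per length (RPKM, log axis) of the 9 genes in each liver, ordered by their mean in NaCl/PBS mice, with 1 point per mouse and groups side by side. Values of 0, which occur in Cybrd1, are left off. Trf lies at 2153 or more in every liver, and the FeSO4 mice of Slc39a14 lie at 100.8 to 155.9.

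The comparisons with DEX gave few calls among the members. For DEX in NaCl mice, 0 of 8 were called higher or lower by edgeR, where 6.5% of all genes were higher and 7.15% lower. The unadjusted edgeR p was under 0.05 for 1 member, Slc39a14, and for 3718 of all 13857 genes. DESeq2 called 1 member there, and 1160 genes higher and 1137 lower among all. For DEX in FeSO4 mice, 0 of 8 members were called, where 0% of all genes were higher and 0% lower. The unadjusted edgeR p was under 0.05 for 2 members, Slc39a14 and Heph, and for 900 of all 13857 genes. DESeq2 called 0 members there, and 5 genes higher and 5 lower among all. FeSO4 in DEX mice gave 1 member higher and 1 lower, where 22.4% of all genes were higher and 20.9% lower. For the difference between the DEX responses, 1 member was lower and 0 higher, where 2.99% of all genes were higher and 3.2% lower. These comparisons share groups of mice, and their values are therefore not independent.

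**Figure D4:**
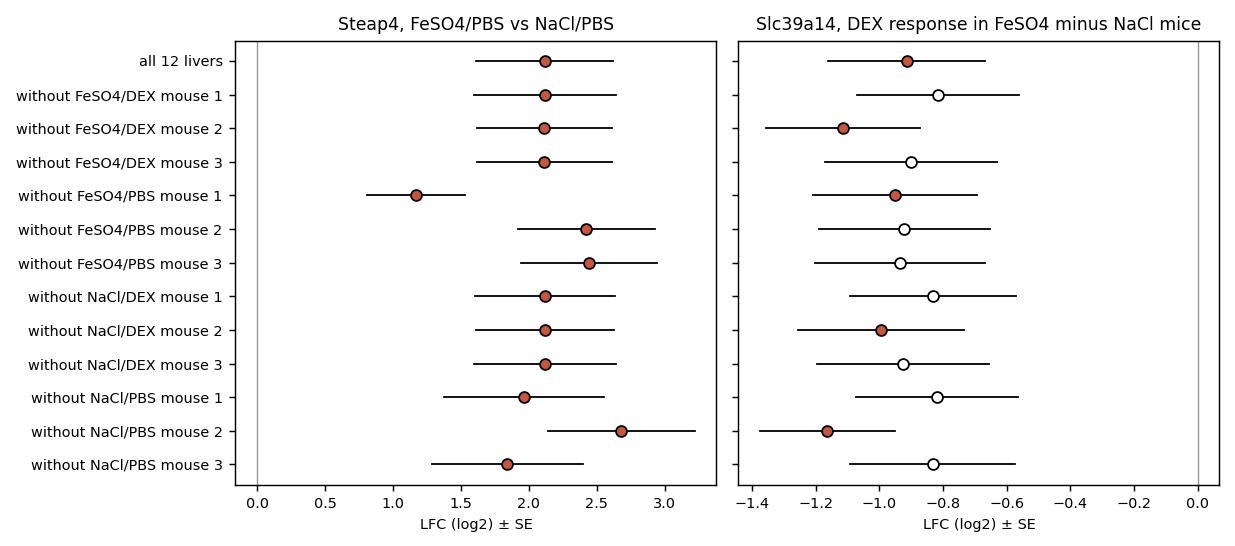
LFC (x axis, log2, ± SE) of Steap4 after FeSO4 (left) and of the difference between the DEX responses of Slc39a14 (right) with all 12 livers and with each mouse left out (y axis), filled where the edgeR FDR was 0.05 or less. Steap4 remained filled in every row, down to 1.17 without FeSO4/PBS mouse 1, and Slc39a14 lost the call in 8 of 12 rows.

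Other genes of the same biology were counted after FeSO4 against the same background, 27.2% of all tested genes higher and 27.3% lower. Of 32 other iron-handling genes (receptors, stores, regulators, exporters and haem genes), 13 were higher and 4 lower, with a median LFC of 0.18, where the median of all genes was -0.02. Without FeSO4/PBS mouse 1 these counts were 12 and 4, with a median LFC of 0.10. Hmox1, which encodes the haem-degrading enzyme haem oxygenase 1, rose from 563 to 36551 normalized counts on average, an LFC of 6.02 (SE 0.26, edgeR FDR 3.3e-09). Lcn2 rose by an LFC of 3.88 (SE 0.53, edgeR FDR 3.3e-05), and without FeSO4/PBS mouse 1 by 3.17 (SE 0.43, edgeR FDR 3.9e-05). Slc40a1, which encodes the iron exporter ferroportin, had 3575, 3503 and 4061 in NaCl/PBS mice and 1032, 844 and 1025 in FeSO4/PBS mice. Its LFC was -1.94 (SE 0.14, edgeR FDR 1.2e-07). Slc25a37, which encodes the mitochondrial iron importer mitoferrin 1, fell with an LFC of -0.62 (SE 0.13, edgeR FDR 9.8e-04). Its relative Slc25a28, which encodes mitoferrin 2, went the other way, from 359 to 1244 normalized counts on average. That LFC was 1.79 (SE 0.25, edgeR FDR 3.6e-05), and 1.48 without FeSO4/PBS mouse 1. Slc39a14 and Slc40a1, an importer and the exporter, thus had called changes of opposite sign in the same livers.

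Among 12 further ZIP genes, 11 passed the filter. After FeSO4, 2 of them were higher and 3 lower, with a median LFC of -0.16, beside 27.2% and 27.3% of all tested genes. Slc39a6 had the largest rise, from 62.6, 74.8 and 48.2 normalized counts to 255, 152 and 163, an LFC of 1.62 (SE 0.25, edgeR FDR 9.0e-05), and 1.35 without FeSO4/PBS mouse 1. Slc39a4, a zinc importer, rose by 0.60 (SE 0.14, edgeR FDR 0.0021), and Slc39a9 fell with an LFC of -0.84 (SE 0.09, edgeR FDR 3.4e-06). Slc39a2 was called lower, with 23, 28 and 35 reads in NaCl/PBS mice against 1, 1 and 2 reads in FeSO4/PBS mice. Its ratio, NaCl/PBS over FeSO4/PBS, was 16.3 with an exact 95% interval of 6.14 to 61.2 that covers counting error only. None of these 11 genes had a fitted LFC as high as that of Slc39a14.

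The reductase and ferroxidase relatives (Steap1, Cyb561, Cyb561a3, Cyb561d1, Cyb561d2, Frrs1 and Hephl1) had 5 of 7 genes tested, with 1 higher and 3 lower and a median LFC of -0.67. With 5 genes, these counts are not read against the shares of all genes, which were 27.2% and 27.3%. Frrs1, a ferric reductase, rose by 0.43 (SE 0.11, edgeR FDR 0.0059). Cyb561a3, a reductase of lysosomes, fell from 286, 238 and 277 normalized counts to 33.3, 52.9 and 66.3, an LFC of -2.40 (SE 0.22, edgeR FDR 1.2e-06). Cyb561d1 fell with an LFC of -0.67 (SE 0.27, edgeR FDR 0.046). That call was lost without FeSO4/PBS mouse 1 (LFC -0.70, edgeR FDR 0.072). Cyb561d2, called lower with all livers (edgeR FDR 0.018), also lost its call in that fit (-0.59, edgeR FDR 0.054). Cyb561 gained a call there, moving from -0.52 (edgeR FDR 0.22) to -1.06 (edgeR FDR 0.012). The 2 of these 5 genes that were lower in that fit were thus Cyb561a3 and Cyb561. After DEX in FeSO4 mice, edgeR called 0 genes of any of the 3 lists, and 0 of all 13857 tested genes.

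**Figure D5:**
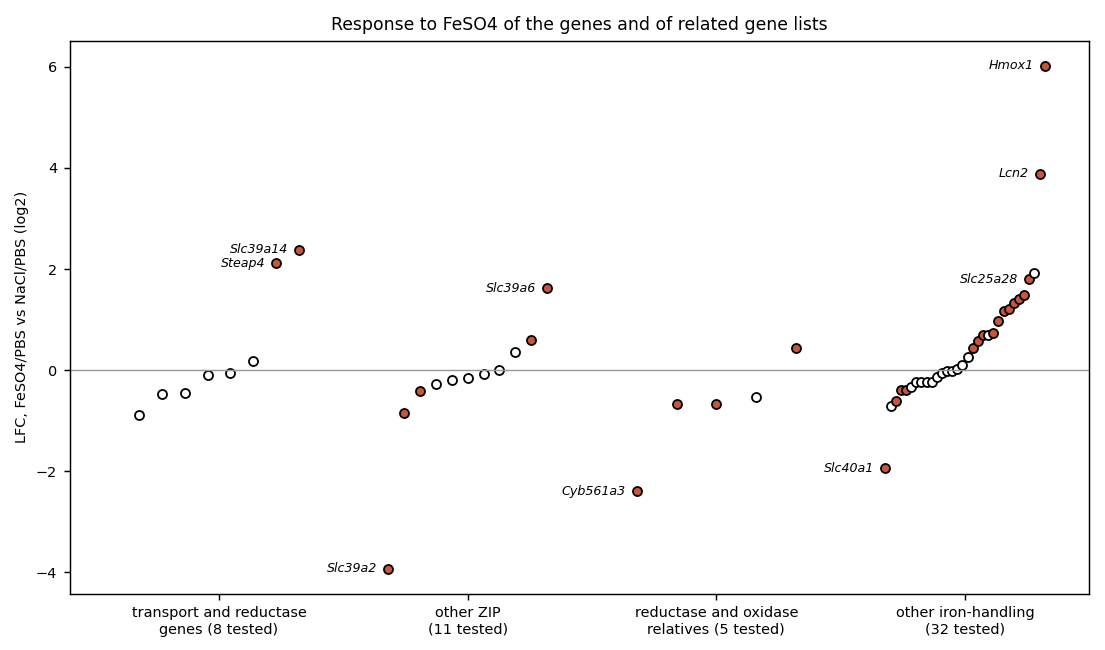
LFC of FeSO4/PBS against NaCl/PBS (y axis, log2) for the 8 tested members and the tested genes of 3 related lists (x axis), with 1 point per gene, filled at an edgeR FDR of 0.05 or less. Members with a call and list genes with a call and an LFC beyond 1.5 in size are named, from Slc39a2, at 4 reads over the FeSO4/PBS mice, to Hmox1 at 6.02.

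Markers of other cells are given beside the shares of all tested genes after FeSO4, 27.2% higher and 27.3% lower. All 7 Kupffer cell markers were lower after FeSO4, and their summed counts lay between 7608 and 8858 in NaCl/PBS and between 3889 and 4581 in FeSO4/PBS mice. For neutrophils 5 of 6 tested markers were higher, and the sums were 117 to 289 in NaCl/PBS and 758 to 913 in FeSO4/PBS mice. Cholangiocyte sums were 92.8 to 106 and 284 to 660, in which Sox9 was the 1 gene of 4 tested that was called, while Krt19, Krt7 and Epcam were not. Of 7 endothelial markers 2 were higher and 3 lower, and of 6 stellate cell markers 2 were higher and 1 lower. Of the lymphocyte markers 1 of 4 tested was lower, as was 1 of 2 mesothelial markers. The endothelial, stellate, lymphocyte and mesothelial counts come from few genes and are not read as departures from those shares. The acinar markers Cpa1, Ctrb1 and Pnlip were at 0 in all libraries. Cela1, the other acinar marker, was detected, with group means of 136 to 206 normalized counts. It was not called after FeSO4 (LFC -0.09, edgeR FDR 0.76). Slc40a1 is known to be abundant in Kupffer cells. The part of these cells in the values of any gene above was not tested.

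The genes whose log2 CPM values followed each member most closely were taken over the 12 libraries, from 11464 genes, as a description of shared patterns. For Slc39a14 these were Rnf44 (Pearson r = 0.99), Ythdc1 (r = 0.99) and Eif4ebp1 (r = 0.99). For Steap4 they were C1qbp (r = 0.95), Trim39 (r = 0.95) and Tomm70a (r = 0.95). Steap2 was closest to Cadps2 (r = 0.93), Bbs9 (r = 0.92) and Zdhhc16 (r = 0.90), and Trf to Rpn2 (r = 0.94), Zfp628 (r = 0.92) and Prdx4 (r = 0.92). Genes close to Slc39a8 were Sdc2 (r = 0.91) and Pld3 (r = 0.91), and Heph was closest to Ppp1r12b (r = 0.94), Adcy5 (r = 0.92) and Syap1 (r = 0.91). The values were lower for Cp (Slc12a2 and Acat1, r = 0.85 and 0.82) and Steap3 (Klhl5, Ccdc28a and Ldaf1, r = 0.85, 0.82 and 0.81). All of these points share libraries, depth and treatment groups.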

How the data were processed

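RNAseq was made from 12 mouse livers. Per the labels and the study's methods, the authors used a stranded mRNA kit, single-end reads, FastQC, STAR 2.7.10b and mm39, and deposited whole-number counts per Ensembl gene without normalization. Which strand setting gave the counts is not given in the sources used here. After TMM scaling and edgeR's filter on low counts, a quasi-likelihood model of the 4 groups was fitted to 12 libraries (edgeR 4.0.16 with limma 3.58.1, prior count 0.125). The edgeR test gives no SE, so the SE of an LFC was derived as its size over the square root of the F statistic. The 95% intervals of LFC are the LFC plus or minus this SE times a t quantile, and are approximate. DESeq2 1.42.0 served as an alternative, in R 4.3.3. Adjusted p-values are Benjamini-Hochberg over 13857 genes. Symbols, positions and lengths came from GENCODE vM39 (GRCm39, the same build as mm39). Depth was 16335651 to 23827340 counts per library. The named genes are the 9 members, up to 2 largest called rises and falls of each related list after FeSO4, and the 3 genes most like each member, of which 2 are not reported here. Slc25a28 is named as well, as the relative of Slc25a37. Members and lists were chosen with earlier results of these data known. Alternatives were DESeq2, its size factors, library size alone, other filters, the libraries of a comparison alone, a replicate block, a minimum LFC of 1 and each mouse left out. Separate mice are taken as replicates. Figures were drawn with matplotlib.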

Additional observations from a re-analysis of the deposited data

Results flagged for a closer look

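The DEX response of Slc39a14 was called different between FeSO4 and NaCl mice in the main fit, and in 9 of 18 alternatives. The LFC of DEX in FeSO4 mice minus that in NaCl mice was -0.91 (SE 0.25, edgeR FDR 0.043), made of -0.38 in FeSO4 mice and 0.53 in NaCl mice, neither of which was called. The difference was no longer called when libraries were scaled by size alone (-0.80, edgeR FDR 0.054), and it stayed negative in all 12 fits with 1 mouse left out, from -1.16 to -0.81. The call was lost in 8 of those 12 fits, with an edgeR FDR of 0.062 to 0.108.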

How the results depend on the processing

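Counts of members called depended on the setting in each comparison. After FeSO4 the count of 2 became 6 with library size alone (Slc39a14 and Steap4 higher, Slc39a8, Steap2, Steap3 and Heph lower), where the median LFC of all genes was -0.34, and 4 without a filter on low counts and with the replicate block, where Steap2 and Steap3 were lower as well. With 1 mouse left out, Steap2 was also called lower without NaCl/DEX mouse 1, and Steap3 without NaCl/DEX mouse 2. The share of higher calls among all genes was 49.9% with TMM and 28.2% with library size alone. After DEX in NaCl mice the count of 0 became 1, Slc39a14, with DESeq2, with DESeq2's size factors, without a filter and with the libraries of the comparison alone, and ran from 0 to 1 with 1 mouse left out. After DEX in FeSO4 mice it became 1 without a filter (Steap4 lower). For FeSO4 in DEX mice the count of 2 became 1 with an LFC beyond 1, and 3, with Steap4 higher too, without a filter and with the libraries of the comparison alone. It ran from 2 to 3 with 1 mouse left out, and was 3 without FeSO4/PBS mouse 1. For the difference between the DEX responses the count of 1 became 0 with library size alone and with an LFC beyond 1, 2 without a filter, and 0 to 1 with 1 mouse left out. The cause of these changes was not tested. Of 747 LFC values under the alternatives, 715 kept their call or their lack of one, 9 lost and 23 gained a call, and 0 called values reversed. Of 630 values uncalled in both, 42 had the other sign. The fit of the libraries of a comparison alone was not run for the difference between the DEX responses, which needs all groups. Replicate numbers did not pair the mice. Deviations of same-numbered mice correlated at -0.12 to 0.17 over 18 pairs, and the block changed no other count of calls. Levels by longest transcript moved 25 of 36 group means by over 1 SD. Cybrd1, at 0 to 3 reads per library, was below the filter and not tested.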
